A study of Mus musculus with 20 samples.

Results

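The 8 genes described here encode parts of the insulin and insulin-like growth factor (IGF) signalling pathway: the receptors Insr and Igf1r, the receptor substrates Irs1 and Irs2, the phosphoinositide kinase subunit Pik3r1, the kinases Akt1 and Akt2, and the inhibitory adaptor Grb10. They were taken by symbol from a table of 53311 rows, and all 8 were found once and passed the filter on low counts. RNA was sequenced from the gastrocnemius, a calf muscle, in 20 mouse samples, 5 in each of 4 groups. Per the labels, all animals carried Cre and floxed Bmal1 alleles (Cre+:iMSBmal1 fl/fl) and were sampled at zeitgeber time 13. The groups were vehicle without exercise, vehicle with exercise, iMSBmal1KO without exercise and iMSBmal1KO with exercise. Exercise was a treadmill run of 30 min, and the exercised muscle was taken 1 h afterwards. The description label of the exercised iMSBmal1KO samples speaks of training, while title and treatment speak of acute exercise. The labels give neither the agent that yields the knockout, nor the promoter that drives Cre, nor whether replicates are separate animals. The p-values therefore measure the spread between these samples, which may be technical in part.

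Insulin and IGF1 bind related receptor tyrosine kinases, which phosphorylate IRS proteins. Phosphorylated IRS proteins recruit PI3K through its regulatory subunit p85, encoded by Pik3r1, and the lipid that PI3K makes brings AKT to the membrane. In skeletal muscle, AKT signalling moves the glucose transporter GLUT4 to the cell surface, promotes glycogen and protein synthesis, and keeps FOXO factors out of the nucleus. GRB10 binds to the activated receptors and dampens their signal. BMAL1, encoded by Arntl, is a core activator of the circadian clock.

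Total counts per library ran from 8045154 to 11269812. The targeted gene, Arntl, had 77 to 198 counts per library and was not lower under the knockout label: edgeR gave log2 fold changes of 0.24 ± 0.23 at rest and 0.20 ± 0.23 after exercise (± SE), with adjusted p of 0.725 and 0.689. The labels do not say which exons are floxed, and the count covers the whole gene. These samples are therefore called knockout-labelled, and every genotype direction rests on the label. Markers of skeletal muscle and of fast fibres were high in all libraries (mean log2 CPM of the fast fibre list 13.1 to 13.6, CPM being counts scaled to a common library size by TMM). The slow fibre list of 8 markers varied far more. With vehicle, its summed level lay between 82.7 and 2541 CPM at rest and between 37.8 and 2491 CPM after exercise. With the knockout label it lay between 243.7 and 3737 CPM at rest and between 52.7 and 2547 CPM after exercise. In vehicle after exercise replicate 2, 3 of the 8 slow markers were at 0 counts. In bulk muscle, fewer cells of a type and less RNA per cell cannot be told apart. Of all markers for slow and fast fibres, muscle, fat, blood, endothelium, macrophages, fibroblasts, nerve and satellite cells, 1 passed the test in a contrast: the haemoglobin gene Hba-a2, which has a near-identical copy, was lower in knockout-labelled muscle after exercise (log2 fold change -1.90, SE 0.48, adjusted p 0.0198).

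Between knockout-labelled and vehicle muscle, Akt1 was lower and Grb10 was higher both at rest and after exercise, while the other 6 genes did not pass the test. At rest, 2 of 8 genes passed an edgeR adjusted p of 0.05, adjusted over 13560 genes, against a background of 3.86% of all genes tested (1.80% higher and 2.06% lower). After exercise, 2 of 8 passed, against 6.42% of all genes (2.67% higher and 3.75% lower). When the difference was averaged over rest and exercise, 2 of 8 passed, against 11.0% (5.18% higher and 5.78% lower, or 702 and 784 genes). With library size alone as the scaling, that averaged split was 806 higher and 660 lower. Akt1 and Grb10 were the genes that passed in each of these 3 contrasts, which share libraries and are not independent. The median log2 fold change of the 8 genes was 0.17 at rest and 0.10 after exercise, beside 0.01 for all genes in both states. Among all genes after exercise, 362 were higher and 508 lower. With library size alone as the scaling, the split was 449 higher and 396 lower, and Akt1 and Grb10 kept their directions and their calls in that contrast.

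Exercise gave 1 call. Irs2 rose when the response was averaged over both genotypes, where 1 of 8 genes passed against 0.634% of all genes (0.494% higher). In vehicle alone, none of the 8 genes passed with edgeR, against 0.804% of all genes. Of the 8, 2 had an unadjusted p under 0.05, as did 8.92% of all genes. DESeq2 called 2 (Irs1 and Irs2), against 1.44% of all genes. In knockout-labelled muscle none of the 8 passed, where the share of all genes called was 0%; 1 of the 8 (Irs2) had an unadjusted p under 0.05, as did 4.71% of all genes, and DESeq2 called none of the 8. The difference between both responses, the interaction, was called for none of the 8 and for 0% of all genes; 1 of the 8 (Irs1) had an unadjusted p under 0.05, as did 5.83% of all genes, and DESeq2 called none of the 8.

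**Figure D1:**
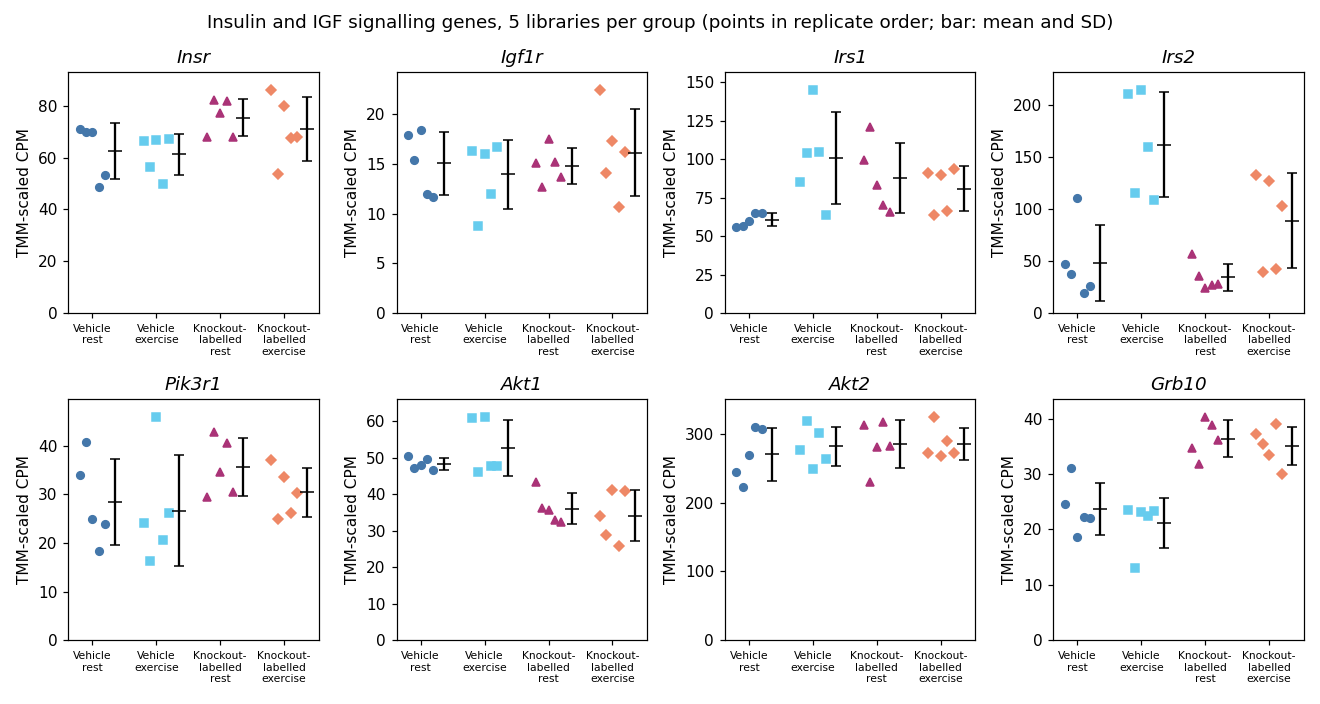
Each panel shows the TMM-scaled CPM of 1 gene (vertical axis, linear, from 0) in the 20 libraries of the 4 groups (horizontal axis), with bars for the mean and SD of each group of 5. The 10 knockout-labelled libraries lie below the 10 vehicle libraries for Akt1, and the exercised vehicle libraries are the highest group for Irs2, with a mean of 161.6 CPM.

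**Figure D2:**
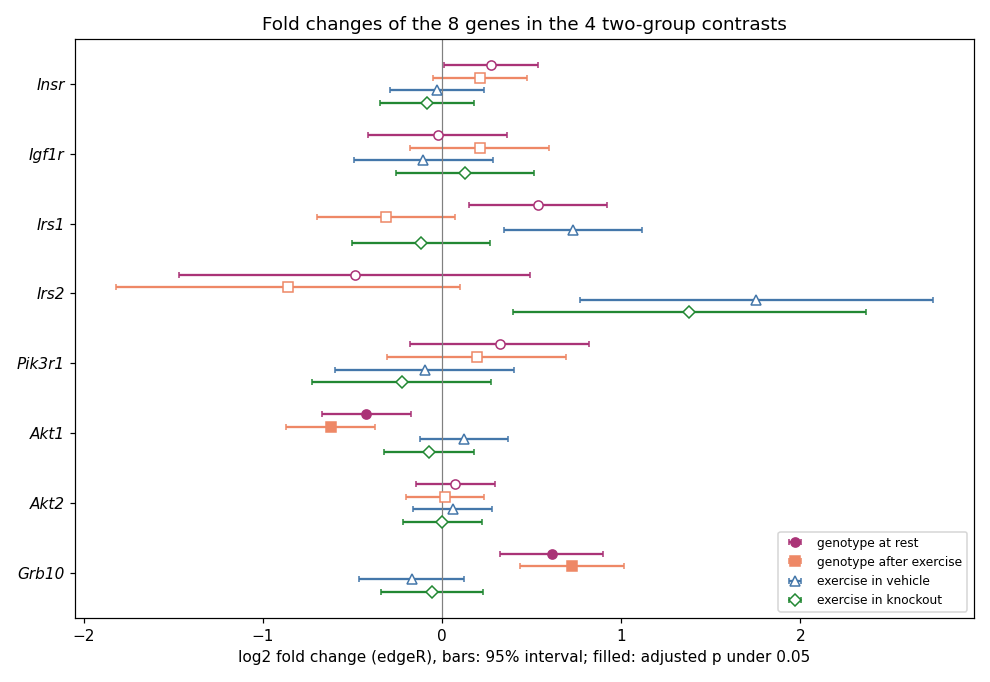
For each gene, symbols show the edgeR log2 fold change in the 4 contrasts of pairs of groups, with 95% intervals, and filled symbols mark an adjusted p under 0.05. The filled symbols are Akt1 (-0.43 and -0.62) and Grb10 (0.61 and 0.73) in both genotype contrasts.

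Neither receptor passed the test in any of the 7 contrasts. Insr, the insulin receptor, lay between 48.7 and 71.0 CPM in all vehicle samples (n = 10) and between 53.9 and 86.2 CPM in the knockout-labelled ones (n = 10). The ranges overlapped, and the averaged genotype difference, 0.24 on the log2 scale (SE 0.090), did not pass (adjusted p 0.0876). It passed without knockout-labelled after exercise replicate 2, which held the lowest Insr of its group (log2 fold change 0.28, adjusted p 0.0380), and with the slow fibre score as a covariate (0.23, adjusted p 0.0332). Exercise differences of Insr were -0.03 in vehicle (SE 0.13, adjusted p 0.988) and -0.09 in knockout-labelled muscle (SE 0.13, adjusted p 1.00).

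Igf1r, the receptor for IGF1, ranged from 8.76 to 18.4 CPM in vehicle and from 10.7 to 22.5 CPM in knockout-labelled muscle. Its group means ran from 13.9 ± 3.47 CPM in vehicle after exercise to 16.1 ± 4.35 CPM in knockout-labelled muscle after exercise (SD, n = 5 each). The genotype difference at rest was -0.02 with a 95% interval from -0.41 to 0.36, and the difference after exercise was 0.21 with an interval from -0.18 to 0.59. Within a library, the median count ratio of Insr to Igf1r was 4.07 in vehicle at rest, 4.96 in knockout-labelled muscle at rest, 4.15 in vehicle after exercise and 4.18 in knockout-labelled muscle after exercise. The log2 ratio was higher by 0.29 in knockout-labelled muscle at rest, but the groups overlapped and the difference did not pass (exact two-sided permutation p 0.0476, adjusted over 12 ratio tests 0.0952).

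The substrates Irs1 and Irs2 dock to both receptors and pass the signal to PI3K. Irs2 was the gene among the 8 with the widest range, from 19.7 to 214.6 CPM and from 160 to 2051 counts. At rest the vehicle libraries held 46.7, 37.4, 110.5, 19.7 and 25.5 CPM of Irs2 (replicates 1 to 5). After exercise the vehicle libraries held 210.4, 115.5, 214.6, 159.3 and 108.2 CPM. Of the vehicle libraries at rest, replicate 3 stood within the exercised range, and the other 4 lay below it. Knockout-labelled libraries at rest held 56.3, 35.9, 23.8, 27.2 and 27.9 CPM of Irs2. After exercise they held 133.0, 39.3, 127.3, 42.4 and 102.5 CPM, with replicates 2 and 4 inside the resting range and the other 3 above it.

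The Irs2 difference with exercise was 1.57 on the log2 scale averaged over both genotypes (SE 0.33, adjusted p 0.0389). In vehicle it was 1.75 (SE 0.47, p 0.00164) and did not pass (adjusted p 0.119). In knockout-labelled muscle it was 1.38 (SE 0.47, p 0.00898) and did not pass either (adjusted p 1.00). The difference between both responses was -0.37 with a 95% interval from -1.74 to 0.99 (adjusted p 0.990). The averaged call was held narrowly. Leaving out 1 library at a time, the fold change stayed between 1.47 and 1.85, and the call was lost in 14 of 20 fits, with an adjusted p of up to 0.0933. It was kept without vehicle at rest replicate 3, vehicle after exercise replicate 2 or 5, knockout-labelled at rest replicate 1, or knockout-labelled after exercise replicate 2 or 4. In vehicle, leaving out replicate 3 at rest gave 2.32 (adjusted p 0.0180).

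Knockout-labelled after exercise replicates 2 and 4, with the lower Irs2, were also among the 5 libraries with the lowest slow fibre scores. The score is the mean log2 CPM of the 8 slow markers and ran from -0.20 to 8.52 over all libraries. It was 0.94 and 0.80 in these 2 libraries, against at least 4.54 in the 15 libraries outside the lowest 5. Vehicle after exercise replicates 2 and 4 were also among the lowest 5 (scores -0.20 and 2.77). They held 115.5 and 159.3 CPM of Irs2, above replicate 5 of their group (108.2 CPM, score 5.92). Replicates 1 and 3 of that group, with scores of 7.59 and 7.89, held 210.4 and 214.6 CPM. With the score as a covariate, the Irs2 difference with exercise was 1.87 averaged (adjusted p 0.00240, with 1.86% of all genes called), 2.02 in vehicle (adjusted p 0.0133, with 1.83% called) and 1.73 in knockout-labelled muscle (adjusted p 0.164). Without the 5 libraries, the averaged difference was 1.78 (adjusted p 0.0356).

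Irs1 was tightly grouped in vehicle at rest, with 56.0, 56.9, 60.0, 64.7 and 65.3 CPM. In vehicle after exercise it stood at 85.3, 103.8, 145.1, 104.7 and 64.0 CPM. Replicate 5 lay within the resting range, and the other 4 lay above it. With the knockout label, Irs1 was at 99.5, 120.8, 82.9, 70.3 and 65.6 CPM in resting and at 91.1, 63.9, 89.5, 66.1 and 93.5 CPM in exercised muscle. All 5 knockout-labelled libraries at rest were above all 5 vehicle libraries at rest, with 65.6 against 65.3 CPM at the nearest point. Non-overlap of this kind was seen for 5.80% of all genes tested.

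None of the Irs1 contrasts passed. The difference was 0.73 with exercise in vehicle (SE 0.19, p 0.000806, adjusted p 0.0787), -0.12 with exercise in knockout-labelled muscle (SE 0.18, adjusted p 1.00) and 0.54 between genotypes at rest (SE 0.19, adjusted p 0.136). The difference between both responses was -0.85 (SE 0.26, p 0.00401) and did not pass (adjusted p 0.723). The response in vehicle passed when vehicle after exercise replicate 5 was left out (0.86, adjusted p 0.0126) or when knockout-labelled at rest replicate 2 was left out (0.73, adjusted p 0.0488), and with DESeq2 (0.73, adjusted p 0.0120) or the slow fibre covariate (0.78, adjusted p 0.0462).

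Within a library, a ratio of counts does not depend on scaling between libraries. The median count ratio of Irs1 to Irs2 was 1.52 in vehicle at rest and 0.658 in vehicle after exercise. In knockout-labelled muscle it was 2.58 at rest and 0.912 after exercise. The log2 ratio was lower after exercise by 1.36 in knockout-labelled muscle, without overlap between the 5 and 5 libraries (exact two-sided permutation p 0.00794, the smallest that 5 against 5 can give, adjusted p 0.0952 over 12 tests). In vehicle it was lower by 1.29, with overlap through replicate 3 at rest (exact permutation p 0.0397, adjusted p 0.0952). Between genotypes after exercise, the mean log2 ratio was 0.03 in knockout-labelled and -0.68 in vehicle muscle, a difference of 0.71 with overlap (exact permutation p 0.0476, adjusted p 0.0952). It was 0.84 without vehicle after exercise replicate 2, and then passed (exact permutation, adjusted p 0.0476). That pass rests in part on small p-values of ratio tests that do not use this library. With all libraries, none of the 12 ratio tests passed after adjustment. Over 12 tests, even the smallest possible p passes only if other tests also have small p-values. A ratio that differed in 1 contrast alone could therefore not pass.

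The start regions of Irs1 and Irs2 are printed because each holds the palindromic E-box, the sequence that the BMAL1 and CLOCK pair is known to bind. Promoter windows of 300 bases (250 before to 50 after a start) were taken from RefSeq on GRCm38.p6 and matched for 7 of the 8 genes, in 13 windows. The E-box CACGTG was found in the Irs1 and Irs2 windows and in 7.15% of all 32851 windows. Both stretches are written 5′ to 3′ on the gene's minus strand, with the E-box in capitals. The Irs1 stretch is chr1:82291505-82291604, from 165 to 66 bases before the start, with its E-box beginning 115 bases before it. The Irs2 stretch is chr8:11008930-11009029, the last 100 bases before the start, with its E-box beginning 44 bases before it.
Irs1: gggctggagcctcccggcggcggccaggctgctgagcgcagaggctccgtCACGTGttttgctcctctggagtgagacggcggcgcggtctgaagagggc
Irs2: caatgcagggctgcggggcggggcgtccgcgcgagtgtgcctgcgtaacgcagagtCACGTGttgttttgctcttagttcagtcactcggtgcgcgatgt
Neither Irs1, with the values given above, nor Irs2 passed a genotype test. Irs2 differed by -0.49 at rest (SE 0.46, adjusted p 0.720) and by -0.86 after exercise (SE 0.45, adjusted p 0.3204). A letter match is a description of the window and shows no binding, and a role of these E-boxes was not tested. On either strand, the related box CACGTT was found in 1 Akt2 window (4.69% of all windows) and the FOXO motif TGTTTAC in 1 Akt1 window (3.65%). The D-box TTATGTAA (0.938%) and the cyclic AMP element TGACGTCA (1.79%) were found in 0 of the 13 windows. The CACGTG and CACGTT searches do not overlap in their letters, since they differ in the last base.

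Both substrate genes share exon bases with a gene on the other strand in GENCODE M21, and whether reads were counted by strand is unknown. Gm9747 covers 30.9% of the Irs1 exon bases, had 282 to 702 counts per library and differed by 0.60 with exercise in vehicle (SE 0.21, adjusted p 0.282). For Irs2 the overlap with 9530052E02Rik is 2.56% of exon bases, and that gene differed by 1.47 with exercise averaged over genotypes (SE 0.40, adjusted p 0.141). With unknown strand use, reads from the shared bases cannot be told apart.

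Pik3r1 encodes the p85 alpha regulatory subunit that couples IRS proteins to the catalytic subunits of PI3K. It ranged from 16.3 to 45.9 CPM in vehicle and from 24.9 to 42.7 CPM in knockout-labelled muscle, so the knockout-labelled range lay inside the vehicle range. The averaged genotype difference was 0.26 (SE 0.17, adjusted p 0.383), and the averaged exercise difference was -0.16 (SE 0.17, adjusted p 0.933).

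Akt1 and Akt2 encode closely related kinases. AKT2 is the form tied most closely to insulin-driven glucose uptake in muscle, and AKT1 to growth. In resting muscle, the Akt1 levels were 50.5, 47.3, 47.9, 49.7 and 46.5 CPM with vehicle and 43.3, 36.1, 35.5, 33.0 and 32.4 CPM with the knockout label. In exercised muscle they were 60.8, 46.2, 61.1, 47.7 and 47.6 CPM with vehicle and 34.1, 28.7, 41.2, 25.8 and 40.9 CPM with the knockout label. The lowest vehicle library of 10 (46.2 CPM) was above the highest knockout-labelled library of 10 (43.3 CPM). Such a separation of all 10 from all 10 libraries was seen for 1.77% of the genes tested.

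The Akt1 difference on the log2 scale was -0.43 at rest (SE 0.12) and passed with an adjusted p of 0.0470. After exercise it was -0.62 (SE 0.12, adjusted p 0.00187). Averaged over both states it was -0.52 (SE 0.085, adjusted p 0.000142), and the difference between states was -0.20 (SE 0.17, adjusted p 0.954). The call at rest was held narrowly: it was lost in 12 of 20 fits that left out 1 library, with fold changes from -0.50 to -0.39 and an adjusted p of up to 0.120, and with library size as the only scaling (-0.42, adjusted p 0.125). Those 12 libraries were the 5 vehicle libraries at rest, knockout-labelled at rest replicates 2 to 5, vehicle after exercise replicates 4 and 5, and knockout-labelled after exercise replicate 1. The calls after exercise and averaged over states were kept in all 20 such fits, with an adjusted p of at most 0.00770 and 0.000459. Akt1 did not pass for exercise in either genotype (0.12 in vehicle, adjusted p 0.872; -0.07 in knockout-labelled muscle, adjusted p 1.00).

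For Akt2, resting libraries held 244.5, 222.0, 268.4, 310.3 and 306.7 CPM with vehicle and 313.1, 229.8, 281.3, 316.4 and 282.4 CPM with the knockout label. Exercised libraries held 276.5, 318.6, 249.2, 301.6 and 263.0 CPM with vehicle and 271.3, 324.2, 267.6, 289.4 and 272.3 CPM with the knockout label. All 4 groups overlapped. The genotype difference was 0.07 at rest, with a 95% interval from -0.15 to 0.29, and 0.02 after exercise, with an interval from -0.20 to 0.24. The intervals of Akt1 in the same contrasts were -0.67 to -0.18 and -0.87 to -0.37.

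The median count ratio of Akt2 to Akt1 within a library was 5.59 in vehicle and 7.91 in knockout-labelled muscle at rest. After exercise it was 5.52 in vehicle and 7.93 in knockout-labelled muscle. The log2 ratio was higher in knockout-labelled muscle by 0.51 at rest (exact two-sided permutation p 0.0159, adjusted p 0.0952) and by 0.66 after exercise (exact permutation p 0.0317, adjusted p 0.0952), with overlap between groups in both states. The difference after exercise was 0.75 without vehicle after exercise replicate 2, and then passed (exact permutation, adjusted p 0.0476). This pass, too, rests in part on small p-values of ratio tests that do not use that library.

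**Figure D3:**
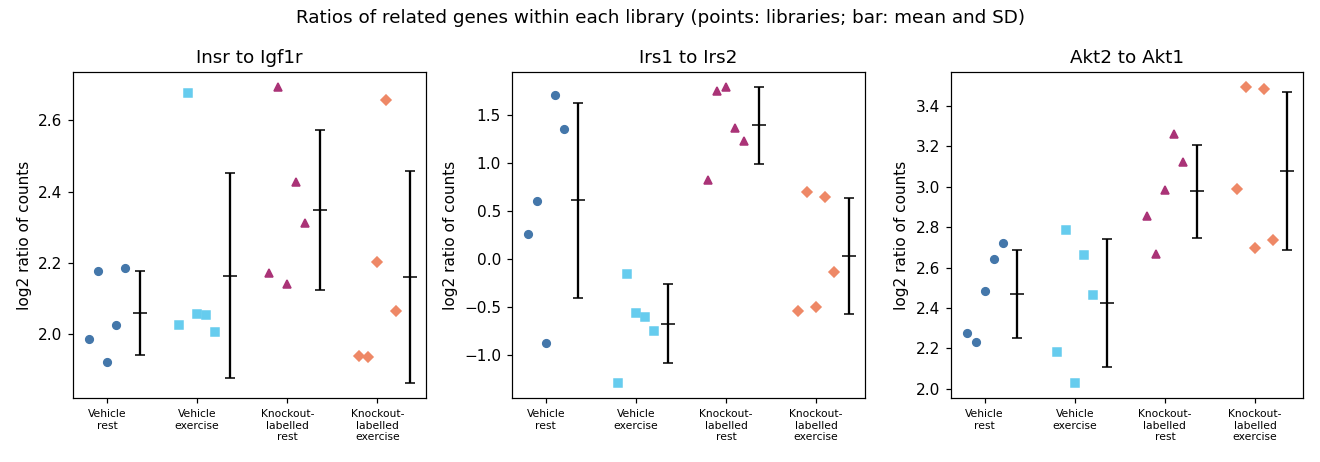
The log2 ratio of counts of 2 related genes within each library is plotted for Insr to Igf1r, Irs1 to Irs2 and Akt2 to Akt1 (vertical axes, log2 scale), by group (horizontal axis), with the mean and SD of each group of 5. For Irs1 to Irs2 the exercised knockout-labelled libraries lie below the resting ones without overlap, and for Akt2 to Akt1 the knockout-labelled means are higher in both states (2.98 against 2.47 at rest, 3.08 against 2.42 after exercise).

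Set per length of the exon union in GENCODE M21, Akt2 was the most abundant of the 8 genes in every group, at 37.9 ± 5.40 CPM per kb in vehicle at rest (SD, n = 5). In that group Akt1 followed at 11.8 ± 0.403 CPM per kb, then Irs2 at 7.59 ± 5.77, Irs1 at 6.62 ± 0.470, Insr at 4.55 ± 0.778, Pik3r1 at 2.82 ± 0.877, Grb10 at 2.61 ± 0.514 and Igf1r at 0.896 ± 0.189 CPM per kb. Among neighbours in this order, the ranges of Akt1 and Irs2, Irs2 and Irs1, Insr and Pik3r1, and Pik3r1 and Grb10 overlapped, and Irs2, from 3.11 to 17.5 CPM per kb, also reached the levels of Insr, Pik3r1 and Grb10. The order depends on the division by length, and the annotation used for counting is not given. Undivided, Insr (62.5 CPM) and Irs1 (60.6 CPM) stood above Akt1 (48.4 CPM) and Irs2 (48.0 CPM) in vehicle at rest. In vehicle after exercise, Irs2 was next after Akt2, at 25.6 ± 7.97 against 39.5 ± 3.96 CPM per kb, with Akt1 at 12.9 ± 1.85 and Irs1 at 11.002 ± 3.273 CPM per kb. In knockout-labelled muscle at rest, Irs1 (9.60 ± 2.47 CPM per kb) and Akt1 (8.80 ± 1.06 CPM per kb) overlapped, and Irs2 stood at 5.41 ± 2.08 CPM per kb. After exercise in knockout-labelled muscle, Irs2 (14.1 ± 7.17 CPM per kb), Irs1 (8.84 ± 1.59 CPM per kb) and Akt1 (8.33 ± 1.71 CPM per kb) overlapped, while Grb10 (3.85 ± 0.378 CPM per kb) lay above Igf1r (0.960 ± 0.259 CPM per kb).

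Grb10, the receptor-binding inhibitor, was measured in resting muscle at 24.6, 31.2, 18.6, 22.3 and 22.0 CPM with vehicle and at 34.7, 31.8, 40.3, 38.9 and 36.1 CPM with the knockout label. In exercised muscle it was measured at 23.6, 13.1, 23.2, 22.4 and 23.2 CPM with vehicle and at 37.1, 35.4, 33.5, 39.0 and 30.1 CPM with the knockout label. Within each state the groups did not overlap, as for 5.80% of all genes at rest and 6.29% after exercise. Over all 20 libraries they met at the edge, since vehicle at rest replicate 2 (31.2 CPM) was above knockout-labelled after exercise replicate 5 (30.1 CPM).

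The Grb10 difference was 0.61 at rest (SE 0.14, adjusted p 0.0105), 0.73 after exercise (SE 0.14, adjusted p 0.00183) and 0.67 averaged over states (SE 0.099, adjusted p 4.45e-05). It was called in all 20 fits that left out 1 library in each of these contrasts. Without the 5 libraries of lowest slow fibre score, the difference after exercise was 0.52 and the call was lost (adjusted p 0.0646). Those libraries were vehicle at rest replicate 5 and replicates 2 and 4 of both exercised groups. The contrast after exercise then had fewer libraries, and 2.21% of all genes were called. The part of the fewer libraries in lost calls was not tested. Vehicle after exercise replicate 2, with the lowest Grb10 of all libraries, also had the lowest slow fibre score (-0.20), and without that library alone the difference after exercise was 0.60 and was still called. Exercise differences of Grb10 did not pass (-0.17 in vehicle, adjusted p 0.824; -0.06 in knockout-labelled muscle, adjusted p 1.00).

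The slow fibre score moved with most of the 8 genes. In a fit of all genes with 1 mean per group and a slope on the score, 6 of 8 genes had a called slope, against 23.5% of all genes tested (12.7% positive and 10.8% negative). The slope in log2 CPM per unit of score was positive for Irs2 (0.17, SE 0.055, adjusted p 0.0388), Pik3r1 (0.088, adjusted p 0.0325), Igf1r (0.084, adjusted p 0.00426), Akt1 (0.057, adjusted p 0.00106) and Insr (0.044, adjusted p 0.0353). It was negative for Akt2 (-0.042, adjusted p 0.00876). Irs1 (0.037, adjusted p 0.344) and Grb10 (0.019, adjusted p 0.524) had no called slope. With the score in the fit, 6.30% of all genes were called at rest, 10.4% after exercise and 16.1% averaged over states. The Akt1 difference at rest was then -0.49 (adjusted p 0.000482) and after exercise -0.61 (adjusted p 1.64e-05), and the Grb10 differences were 0.59 (adjusted p 0.00617) and 0.74 (adjusted p 0.000575). Without the 5 libraries of lowest score, the Akt1 difference was -0.45 at rest (adjusted p 0.00939) and -0.54 after exercise (adjusted p 0.0151).

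**Figure D4:**
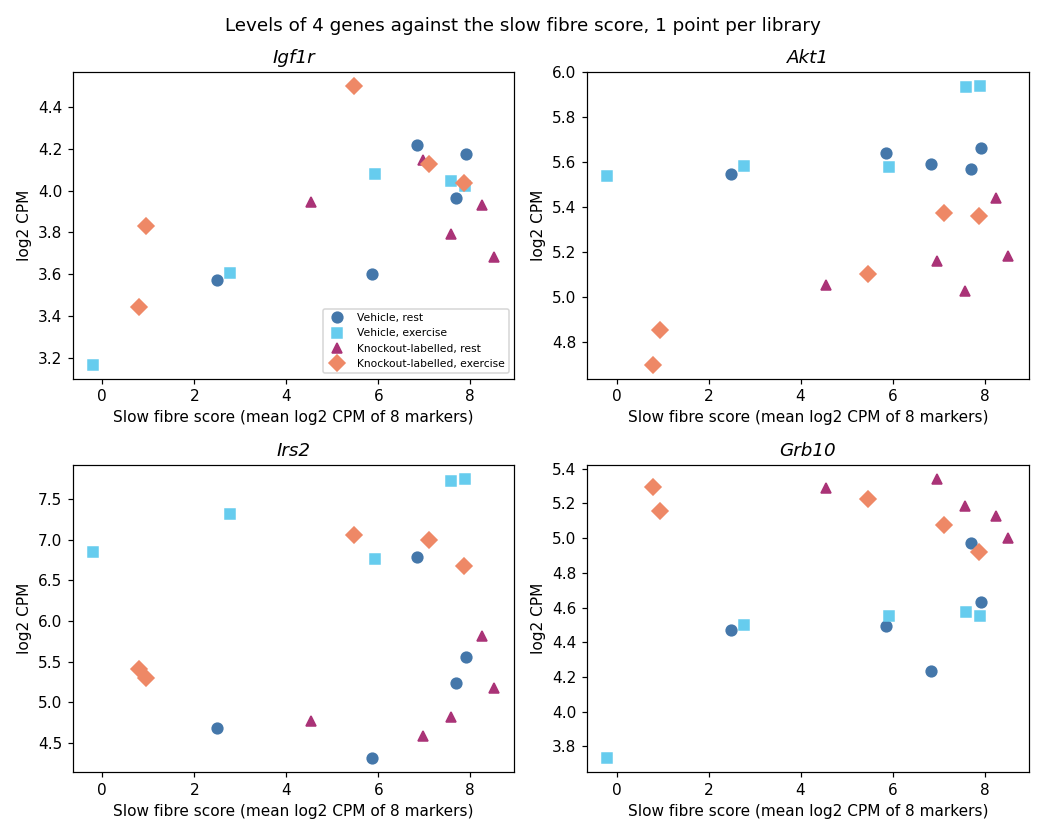
The log2 CPM of Igf1r, Akt1, Irs2 and Grb10 (vertical axes) is plotted against the slow fibre score (horizontal axes, mean log2 CPM of 8 markers), with 1 point per library and a symbol for each group. The 5 libraries with scores of at most 2.77 stand apart on the left, and Akt1 is lower in knockout-labelled than in vehicle libraries on both sides of that gap.

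For the genes with a call, the 2 genes of closest pattern were sought among 7912 genes over the 20 libraries, by the root mean square (RMS) difference of log2 CPM centred on each gene's mean. For Akt1 they were Synpo (RMS difference 0.14) and Vdac1 (0.15), where the RMS deviation of Akt1 itself was 0.33. At rest, Synpo was at 172.3 ± 5.32 CPM with vehicle and at 122.8 ± 11.1 CPM with the knockout label, and Vdac1 at 1226 ± 29.4 and 878.4 ± 76.4 CPM (SD, n = 5 each). For Grb10 they were Tsc22d4 (0.20) and Ice1 (0.22), beside 0.41 for Grb10 itself. At rest, Ice1 was at 41.4 ± 6.08 CPM with vehicle and at 68.2 ± 3.41 CPM with the knockout label. For Irs2 they were Pdxk (0.45) and Impact (0.46), beside 1.10 for Irs2 itself. Impact was at 15.4 ± 5.26 CPM at rest and 58.0 ± 24.5 CPM after exercise with vehicle, and at 18.5 ± 3.20 and 33.8 ± 10.7 CPM with the knockout label.

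Around these 8 genes, 71 other genes of the pathway were listed by role, and 62 passed the filter on low counts. Those that did not pass were Ins1, Ins2, Igf2, Igfbp1, Igfbp2, Insrr, Irs4, Grb7 and Trib3. Between genotypes at rest, 5 of 62 were called (1 higher, 4 lower), which is 8.06% beside 3.86% of all genes. After exercise 5 of 62 were called (3 higher, 2 lower), again 8.06%, beside 6.42% of all genes. Averaged over states 10 of 62 were called (5 higher, 5 lower), 16.1% beside 11.0% of all genes. With exercise in vehicle 1 of 62 was called, 1.61% beside 0.804% of all genes. None of the 62 was called for exercise in knockout-labelled muscle, the interaction or exercise averaged over genotypes (0%, 0% and 0.634% of all genes). An unadjusted p under 0.05 was reached by 4 with exercise in knockout-labelled muscle (4.71% of all genes) and by 7 in the interaction (5.83%). With DESeq2, 0 were called in these 2 contrasts (0% and 0.0221% of all genes) and 2 for exercise averaged over genotypes (1.23%). The median log2 fold change of the 62 was -0.04 at rest and -0.05 after exercise, beside 0.01 for all genes in both states.

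Of 1 ligand and 5 binding proteins tested, only the binding protein Igfbp5 was called between genotypes at rest (beside 3.86% of all genes). The same gene alone was called averaged over states (beside 11.0%), and none was called after exercise (beside 6.42%). Igfbp5 encodes a secreted IGF binding protein. At rest it was at 718.7 ± 118.6 CPM with vehicle and at 366.3 ± 41.5 CPM with the knockout label. The log2 difference was -0.97 (SE 0.20, adjusted p 0.00450), without overlap, as for 5.80% of all genes. The difference was -0.50 after exercise (adjusted p 0.143). Igf1, the only ligand tested and named after its values were seen, differed by 0.17 at rest (adjusted p 0.888) and by -1.16 after exercise (SE 0.35, adjusted p 0.0540), where it was at 19.7 ± 6.71 CPM with vehicle and at 8.82 ± 2.50 CPM with the knockout label. The other 4 binding proteins tested were not called in any contrast. Igf2r, the receptor that clears IGF2, was higher in knockout-labelled muscle after exercise, 105.8 ± 7.79 against 78.4 ± 4.43 CPM (0.43, SE 0.076, adjusted p 0.000716), and averaged over states (0.34, adjusted p 0.000116).

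Of 6 adaptors tested, 1 was called between genotypes at rest (beside 3.86% of all genes), 2 after exercise (beside 6.42%) and 3 averaged over states (beside 11.0%). Gab1, a docking protein that binds PI3K, was lower in knockout-labelled muscle in both states, at 12.997 ± 1.963 against 21.7 ± 2.74 CPM at rest (-0.74, SE 0.14, adjusted p 0.00221) and 14.6 ± 2.66 against 23.2 ± 3.98 CPM after exercise (-0.67, adjusted p 0.00397). The gene Gm31105 on the other strand shares 5.23% of the Gab1 exon bases and was lower too (-1.27 at rest, adjusted p 0.00276). Sh2b2, an adaptor that binds the insulin receptor, was higher after exercise (1.02, SE 0.30, adjusted p 0.0413) and averaged over states (0.91, adjusted p 0.00602), at 4.72 ± 2.12 against 2.29 ± 0.854 CPM after exercise. The call after exercise was lost in 5 of 20 fits that left out a library, which were vehicle after exercise replicates 1, 2 and 3 and knockout-labelled after exercise replicates 2 and 4, with only the groups of the contrast in the fit, and without the 5 libraries of lowest slow fibre score. Shc1, which links receptors to the RAS pathway, was higher averaged over states by 0.24 (SE 0.078, adjusted p 0.0483). That call was lost in 14 of 20 such fits, and was kept without vehicle at rest replicate 5, vehicle after exercise replicate 2 or 4, knockout-labelled at rest replicate 2 or 3, or knockout-labelled after exercise replicate 2. It was also lost with RLE size factors and with no filter on low counts.

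Of 6 PI3K subunits beside Pik3r1, only Pik3ca was called, at rest, after exercise and averaged over states. That is 16.7% in each, beside 3.86%, 6.42% and 11.0% of all genes. Pik3ca encodes the catalytic subunit p110 alpha, the partner of p85 in insulin signalling, and was higher in knockout-labelled muscle in both states. Within each state the groups did not overlap for Pik3ca, as for 5.80% of all genes at rest and 6.29% after exercise. Pik3ca stood at 67.7 ± 11.1 against 35.9 ± 2.87 CPM at rest (0.92, SE 0.11, adjusted p 5.61e-06) and at 63.7 ± 5.21 against 41.0 ± 4.65 CPM after exercise (0.64, SE 0.10, adjusted p 0.000388). Of 12 downstream kinases, 1 (Pdpk1) was called averaged over states, 8.33% beside 11.0% of all genes, and none at rest or after exercise. Pdpk1, which phosphorylates AKT, was higher averaged over states by 0.33 (SE 0.087, adjusted p 0.0129), and lost the call without the 5 libraries of lowest slow fibre score.

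Of 19 inhibitors tested, 1 (Pik3ip1) was called between genotypes at rest and averaged over states. That is 5.26% in each, beside 3.86% and 11.0% of all genes, and none was called after exercise (beside 6.42%). Pik3ip1, a transmembrane protein that inhibits PI3K, was lower in knockout-labelled muscle at rest, at 21.2 ± 4.69 against 40.2 ± 10.1 CPM (-0.92, SE 0.18, adjusted p 0.00262), and averaged over states (-0.65, adjusted p 0.00101). Of 12 targets, 1 was called between genotypes at rest (Tbc1d1) and 1 after exercise (Foxo1), 8.33% in each beside 3.86% and 6.42% of all genes. Averaged over states 2 were called (Tbc1d1 and Slc2a4), 16.7% beside 11.0%, and with exercise in vehicle 1 (Foxo1), 8.33% beside 0.804%. Tbc1d1, a RAB GTPase-activating protein phosphorylated by AKT and AMPK, was lower at rest, at 41.7 ± 15.3 against 107.5 ± 29.2 CPM (-1.37, SE 0.35, adjusted p 0.0380), and averaged over states (-1.18, SE 0.25, adjusted p 0.00422). Its call at rest was lost in 7 of 20 fits that left out a library: vehicle at rest replicate 3, 4 or 5, or knockout-labelled at rest replicate 1, 2, 4 or 5. It was also lost with no filter on low counts. Slc2a4, which encodes GLUT4, was lower averaged over states by 0.20 in size (log2 fold change -0.20, SE 0.062, adjusted p 0.0331). The Slc2a4 call was lost in 6 of 20 such fits (vehicle at rest replicate 4 or 5, vehicle after exercise replicate 1 or 5, knockout-labelled at rest replicate 1, knockout-labelled after exercise replicate 2), with library size as the only scaling, and without the 5 libraries of lowest slow fibre score.

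Foxo1, a transcription factor that AKT inactivates, was the 1 pathway gene called for exercise in vehicle. It stood at 26.6 ± 8.37 CPM at rest and 71.1 ± 29.4 CPM after exercise (1.42, SE 0.29, adjusted p 0.0287), without overlap, as for 2.04% of all genes. In knockout-labelled muscle it stood at 24.8 ± 5.92 and 32.2 ± 9.88 CPM (0.39, SE 0.29, adjusted p 1.00), and the difference between both responses did not pass (-1.03, SE 0.41, adjusted p 0.803). After exercise Foxo1 was lower in knockout-labelled than in vehicle muscle (-1.14, SE 0.29, adjusted p 0.0245). The exercise call was lost in 6 of 20 fits that left out a library (vehicle at rest replicate 2, 4 or 5, vehicle after exercise replicate 2, 3 or 4), and the genotype call in 4 of 20 (vehicle after exercise replicate 2 or 4, knockout-labelled after exercise replicate 2 or 4). Both were lost with only the groups of the contrast in the fit and without the 5 libraries of lowest slow fibre score. The exercise call was also lost with library size as the only scaling and with no filter on low counts. Without those 5 libraries, the Foxo1 genotype difference after exercise was -0.49 (adjusted p 0.531), where fewer libraries were left and 2.21% of all genes were called. The gene Gm20402 on the other strand shares 7.78% of the Foxo1 exon bases and differed by 1.37 with exercise in vehicle (adjusted p 0.121).

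**Figure D5:**
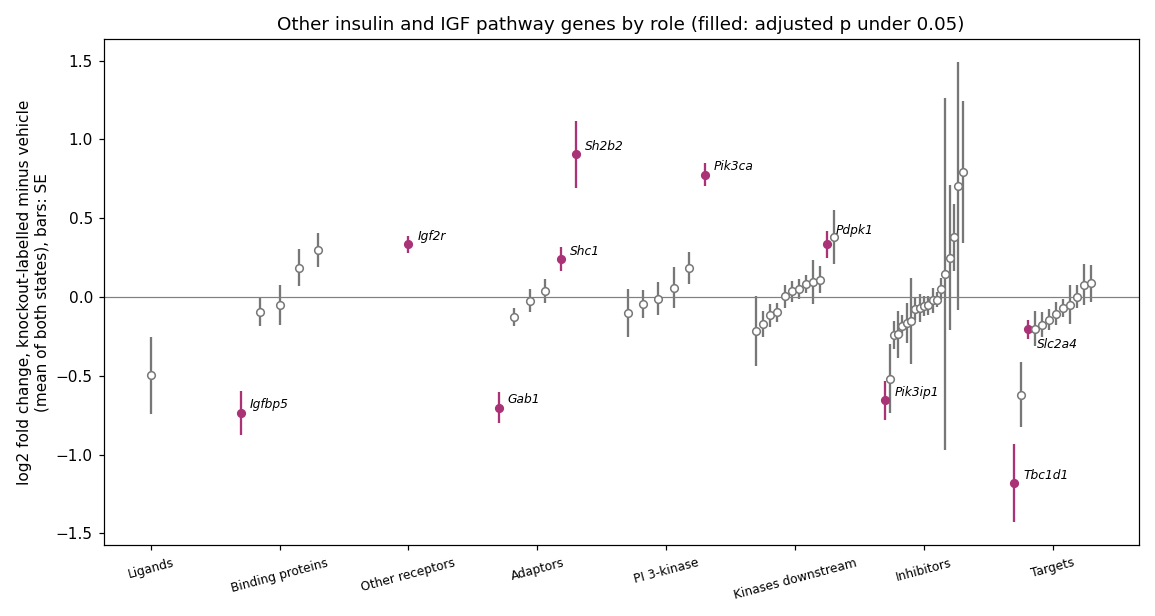
Each point is 1 of the 62 other pathway genes, with the log2 difference of knockout-labelled from vehicle muscle averaged over rest and exercise (vertical axis, bars for SE), grouped by role (horizontal axis). Filled points passed an adjusted p of 0.05: 5 lie above 0 (Igf2r, Shc1, Sh2b2, Pik3ca, Pdpk1) and 5 below (Igfbp5, Gab1, Pik3ip1, Tbc1d1, Slc2a4).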

How the data were processed

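The values were whole-number counts per gene symbol for 20 samples, as deposited by the authors in 1 table whose columns all belonged to labelled samples. Partek, STAR 2.7.8a and DESeq2 and the builds mm10 and GRCm39 appear in the submitters' processing notes, with no role or order; the annotation and the use of strand are not given in the sources used here. Total RNA came from a Trizol and Qiagen column extraction, per the labels' protocols.

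Genes were filtered with filterByExpr (minimum count 10), which kept 13560 genes holding 99.83% of counts. Counts were fitted with edgeR 4.0.16 in R 4.3.3 (TMM scaling, robust quasi-likelihood test, 1 mean per group over all 20 samples). P-values were adjusted by Benjamini-Hochberg across all genes tested, with a threshold of 0.05. Log2 CPM used a prior count of 2, and ratios of counts had 0.5 added. The fit was run on simulated counts with changes set only in knockout-labelled muscle at rest. Those counts held no slow fibre differences, so that run does not cover them. Exon lengths and overlaps came from GENCODE M21, and promoter windows from RefSeq. No duplicate library was seen: within each group, the closest pair differed by a chi-square per degree of freedom of at least 3.80. Reads carried no molecular identifiers and need not be independent molecules.

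The text names the 8 genes, the listed pathway genes called in any contrast, the 2 genes closest in pattern to each gene with a call, and Arntl. Outside that rule, Igf1, Hba-a2, genes that overlap a named gene and pathway genes that did not pass the filter were named after their values were seen. The genes and lists were chosen with earlier results of these data known. Alternatives covered scaling, DESeq2 1.42.0, the filter, the groups in the fit, a replicate block, a slow fibre covariate and each library left out.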

Additional observations from a re-analysis of the deposited data

Results flagged for a closer look

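In 2 of 48 groups of 5 libraries tested for a value far from the others (4 groups each for Arntl, the 8 genes and the 3 ratios), 1 library stood apart by more than Dixon's 95% critical value of 0.71. Chance gives about 1 such group in 20. Grb10 in vehicle after exercise was lowest in replicate 2, at 3.73 log2 CPM, with a gap to the next library of 0.914 of the group's range. The log2 ratio of Insr to Igf1r in vehicle after exercise was highest in the same library, at 2.68, with a gap of 0.924 of the range. That library had the lowest slow fibre score of the 20 (-0.20) and the lowest Igf1r (8.76 CPM). In the edgeR fit with a slope on the score, Igf1r and Insr had called slopes (adjusted p 0.00426 and 0.0353). Grb10 had none (adjusted p 0.524), and 23.5% of all genes had a called slope. The part of the score in the 2 values of this library was not tested.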

How the results depend on the processing

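Over all alternatives run, no called fold change of the 8 genes changed sign, and the Grb10 calls at rest and averaged over states and the Akt1 calls after exercise and averaged over states were kept. The causes of the moves below were not tested. With library size only, the genotype contrast at rest called 1 of the 8 genes and 3.71% of all genes. Exercise averaged over genotypes then called 0 of the 8 and 0.45% of all genes, and exercise in vehicle 0 pathway genes and 0.634%. With DESeq2, exercise in vehicle called 2 of the 8, 2 pathway genes and 1.44% of all genes, exercise averaged 2 pathway genes and 1.23%, and the interaction 0.0221%. With no filter on low counts, more genes are tested and the share of all genes called fell to 1.59% (genotype at rest), 2.74% (after exercise), 5.04% (averaged), 0.378% (exercise in vehicle, with 0 pathway genes) and 0.256% (exercise averaged, with 0 of the 8). With only the groups of a contrast in the fit, exercise in vehicle called 0.472% of genes and 0 pathway genes. With the slow fibre covariate, the genotype contrast called 6.30% of genes and 10 pathway genes at rest, and 10.4% and 8 after exercise. With that covariate, exercise called 1.83%, 2 pathway genes and 2 of the 8 in vehicle, 0.0369% in knockout-labelled muscle, and 1.86% and 3 pathway genes averaged. Leaving out the 5 libraries of lowest slow fibre score was an alternative chosen after seeing the data. It left fewer libraries in vehicle at rest and in both exercised groups. The genotype contrast then called 2.21% of genes and 1 of the 8 after exercise and 7.33% averaged. Exercise then called 0.444% and 0 pathway genes in vehicle, 0.0218% in knockout-labelled muscle and 0.983% averaged.

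With each library left out in turn, the share of all genes, the pathway genes and the 8 genes called ran as follows. The genotype contrast gave 2.68% to 4.38%, 4 to 6 and 1 to 2 at rest, 4.70% to 6.54%, 3 to 7 and 2 to 2 after exercise, and 9.34% to 11.2%, 8 to 11 and 2 to 3 averaged. Exercise gave 0.380% to 0.986%, 0 to 2 and 0 to 1 in vehicle, 0% in knockout-labelled muscle, and 0.255% to 0.796%, 0 to 2 and 0 to 1 averaged, and the interaction 0% to 0.0073%. The genotype differences of the log2 ratios after exercise (knockout-labelled minus vehicle) ran from 0.54 to 0.85 (Irs1 to Irs2) and from 0.55 to 0.75 (Akt2 to Akt1). Each passed in the exact permutation test without vehicle after exercise replicate 2 (adjusted p 0.0476), in part through small p-values of other ratio tests.

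Libraries with the same replicate number were at most weakly alike. Of 30 same-numbered pairs of libraries, 15 had a correlation over 0.1 (from -0.45 to 0.44). The median was 0.089, beside -0.017 for other pairs of libraries from different groups. Among libraries of other groups, 4 of 20 libraries correlated best with their own number, as many as random matching gives on average. These correlations cannot decide whether the numbers pair the samples. With the replicate number as a block, exercise in vehicle called 1 of the 8 genes (Irs2, 1.90, adjusted p 0.0375), 0 pathway genes and 0.737% of all genes. In that fit the Foxo1 call between genotypes after exercise was lost too, with a log2 fold change of -1.16. For the ratios, the smallest p that the paired test of 5 differences can give is 0.0625.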
